A study of Homo sapiens with 12 samples.

Results

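The genes described here encode lysosomal hydrolases and the activator proteins that work with them. They were chosen by symbol from a list of 39 such genes, all 39 of which were among the 18668 genes listed in the deposited table. The list holds 13 proteases, 13 glycan-degrading enzymes, 5 sulfatases and 8 lipid enzymes and activators. Acid hydrolases are made at the endoplasmic reticulum, most are tagged with mannose 6-phosphate in the Golgi, and receptors carry them to the lysosome, where they break down proteins, glycans and lipids in an acidic lumen. Many of their genes carry a short palindromic motif near the start site that is bound by the transcription factors TFEB, TFE3 and MITF, and loss of single enzymes causes storage diseases. The same enzymes digest what autophagy delivers, including proteins that are sent to the lysosome for degradation.

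Polyadenylated RNA was sequenced from 22Rv1, an androgen-independent line of human prostate cancer cells, after 24 h with 1 of 4 treatments. The treatments were a degrader directed at the androgen receptor (libraries labelled 22Rv1_2024), the androgen receptor antagonist enzalutamide, a ligand that activates autophagy (labelled 22Rv1_1021) and vehicle, with 3 libraries described as biologically independent in each. The labels gave the genotype of all 4 groups as WT and gave no dose, and the series rests on this 1 cell line. Every compound was set against vehicle, and degrader cells were also set against those given each of the other compounds.

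The libraries held 55.5 to 77.2 M reads each, and no member had fewer than 172 reads in any library. The luminal epithelial markers KRT8 (207 to 418 FPKM) and KRT18 (245 to 312 FPKM) were abundant in every library. Both fell in degrader cells against vehicle cells, as did HOXB13, which makes 3 of 6 luminal markers; their part in the results below was not tested. Of 6 macrophage and leukocyte markers, whose cells are rich in lysosomal enzymes, CD14 was at 0.0974 to 0.235 FPKM. The other 5 were not among the listed genes, so this check rests on CD14 alone. Of 5 fibroblast markers, COL1A2 was not among the listed genes and the others ran from 0.0161 FPKM (DCN, lowest library) to 3.03 FPKM (LUM, highest library). In CPM, a gene's reads scaled to a common library size, ligand replicate 3 was the lowest of its group for 27 of the 39 members, and vehicle replicate 3 the lowest of its group for 23. Degrader, enzalutamide and vehicle replicate 1 were the highest of their groups for 19, 24 and 23 members.

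Levels can be compared between genes on the FPKM scale, which is per transcript length. In vehicle cells the median member had 15.3 FPKM, against 4.09 FPKM for all listed genes, and 33 of the 39 members lay above that median of all genes. PSAP, the precursor of the saposin activators of sphingolipid breakdown, had the highest level, 181 ± 8.62 FPKM in degrader cells and 154 ± 3.62 FPKM in vehicle cells (mean ± SD, n = 3 each, as for all means below). DPP7, a dipeptidyl peptidase, had 135 ± 10.7 FPKM in degrader cells and 142 ± 12.7 FPKM in vehicle cells. The aspartic protease cathepsin D (CTSD) had 112 ± 7.46 FPKM in degrader cells and 88.8 ± 2.78 FPKM in vehicle cells. These 3 genes held 39.1 to 41.1% of the summed member FPKM of a library.

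At the low end stood IDUA, the alpha-iduronidase of heparan and dermatan sulfate breakdown, with 2.0 ± 0.361 FPKM in degrader cells and 1.19 ± 0.0421 FPKM in vehicle cells, and arylsulfatase B (ARSB), with 1.38 ± 0.0555 FPKM in degrader cells and 1.5 ± 0.112 FPKM in vehicle cells. In the vehicle order, libraries of 15 of the 38 pairs of neighbours did not overlap, so the other neighbours did not differ beyond their spread. The member whose place differed most between the orders was the sialidase NEU1, rank 6 in degrader cells at 39.2 ± 3.44 FPKM and rank 20 in vehicle cells at 15.3 ± 1.05 FPKM. Next came cathepsin B (CTSB), rank 20 in degrader cells at 14.3 ± 0.402 FPKM and rank 13 in vehicle cells at 21.6 ± 1.08 FPKM.

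**Figure D1:**
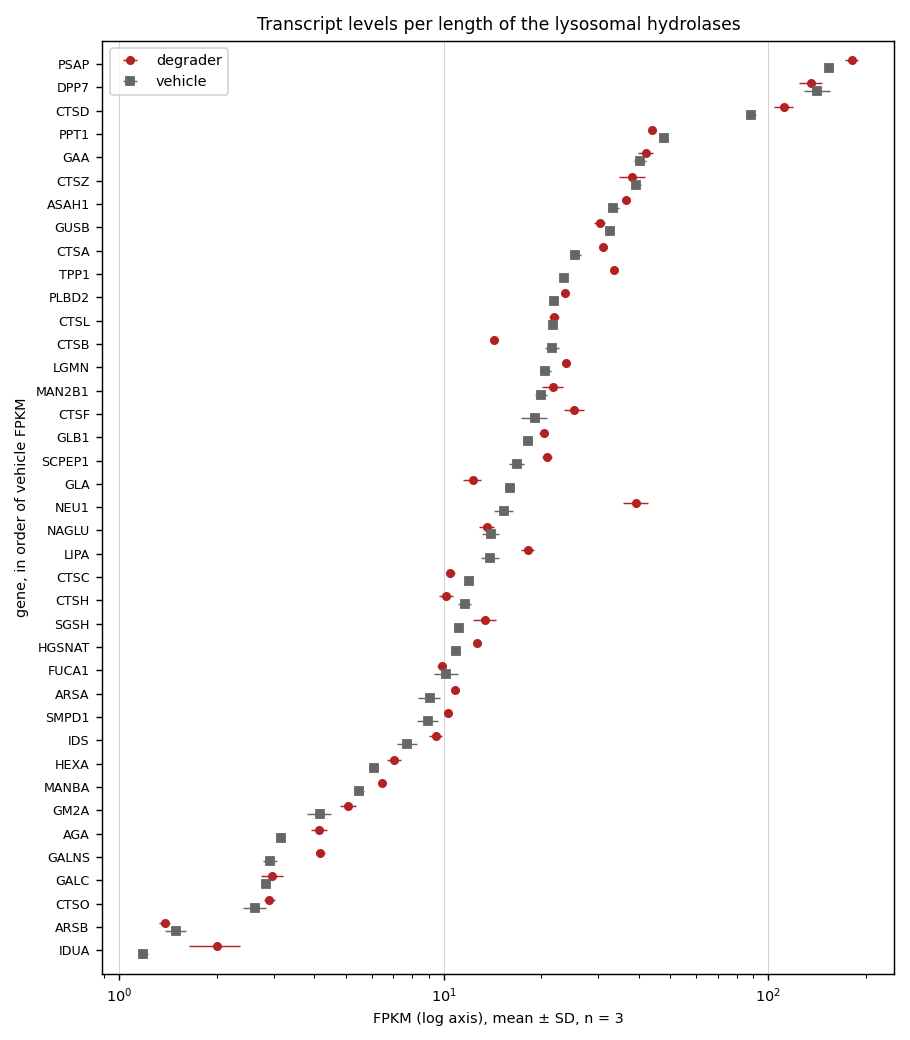
FPKM (log axis) of the 39 members in degrader and vehicle cells, as mean with SD over 3 libraries, in order of the vehicle level. PSAP, DPP7 and CTSD stand at the top in both groups, and NEU1 shows the widest gap between groups on this axis, 39.2 against 15.3 FPKM.

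In degrader cells 22 of the 39 members rose against vehicle cells and 4 fell (edgeR quasi-likelihood test, Benjamini-Hochberg adjusted p under 0.05 over 17702 genes), where 16.4% of all tested genes rose and 16.4% fell. The members' share was 56.4% higher and 10.3% lower. The shares of all tested genes, here and below, were not matched to the members' levels. In vehicle cells 33 of the 39 members lay above the median FPKM of all listed genes. The part of this difference in level in the contrast was not tested. The median log2 fold change of the members was 0.16, against 0.01 over all genes tested. The rises of NEU1, IDUA, TPP1 and GALNS reached 0.5 on the log2 scale, and the other 18 were smaller. The extremes were 1.35 (NEU1) and -0.59 (CTSB), and 28 of 39 values were above 0. Values are shares of a library's reads from a bulk culture, in which fewer cells of a type and less RNA per cell cannot be told apart.

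The libraries of degrader and vehicle cells did not overlap for 28 of the 39 members (71.8%), 23 higher and 5 lower, against 45.2% of all genes tested. Summed over the 39 members, degrader libraries held 2975 to 3164 CPM and vehicle libraries 2660 to 2793 CPM, without overlap. Without NEU1 and PSAP the sums were 2308 to 2426 CPM in degrader libraries and 2145 to 2250 CPM in vehicle libraries, also without overlap.

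**Figure D2:**
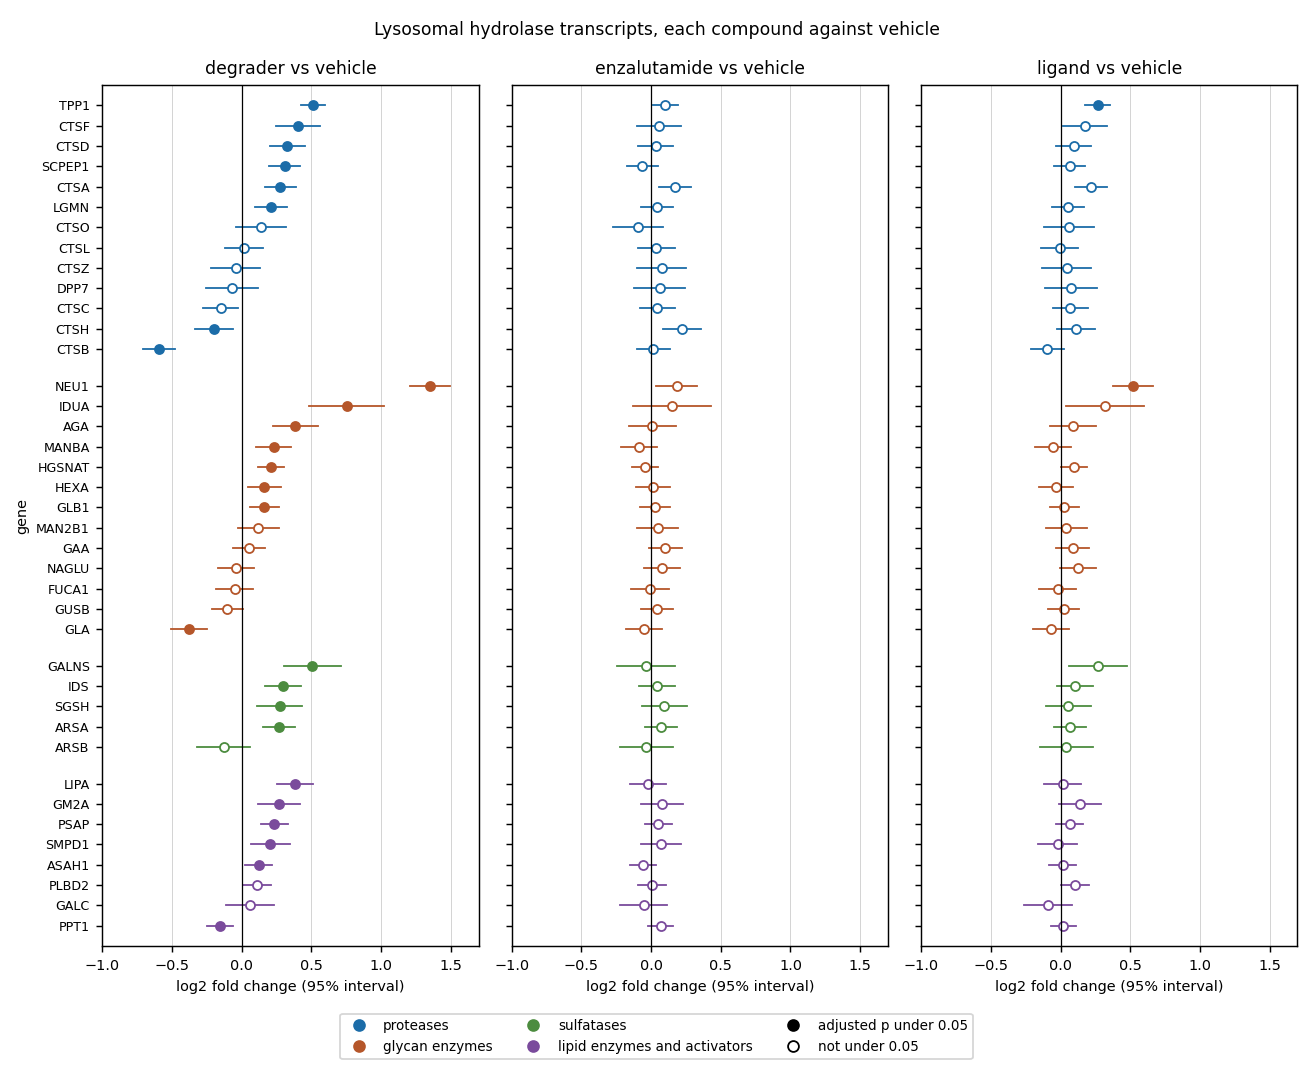
Log2 fold change with 95% confidence interval of each member, for the degrader, enzalutamide and the ligand against vehicle, with filled points where the edgeR adjusted p was under 0.05. Filled points are frequent for the degrader (26 of 39), absent for enzalutamide and 2 for the ligand (NEU1 and TPP1).

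NEU1, the sialidase that takes terminal sialic acids off glycoproteins and glycolipids, had the largest log2 fold change of the 39. It had 160.0, 137 and 139 CPM in degrader libraries, 68.5, 63.2 and 62.2 CPM in enzalutamide libraries, 85.4, 83.0 and 76.9 CPM in ligand libraries and 61.3, 55.6 and 53.8 CPM in vehicle libraries. Every degrader library lay above every other library, and every ligand library lay above all enzalutamide and vehicle libraries. The log2 fold change of degrader against vehicle was 1.35 (SE 0.07, 95% interval 1.2 to 1.5, edgeR adjusted p = 5.29e-10), and it was 1.27 to 1.41 with each library left out in turn.

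TPP1, a tripeptidyl peptidase lost in a form of neuronal ceroid lipofuscinosis, had 130.1, 126 and 132 CPM in degrader libraries, 97.0, 95.5 and 99.4 CPM in enzalutamide libraries, 108, 112 and 107 CPM in ligand libraries and 89.0, 90.5 and 92.6 CPM in vehicle libraries. The 4 groups did not overlap at any point, with degrader highest, then ligand, enzalutamide and vehicle. The log2 fold change of degrader against vehicle was 0.51 (SE 0.04, 95% interval 0.42 to 0.60, edgeR adjusted p = 1.17e-07).

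Promoter sequence was read for the members from RefSeq (build GRCh38.p14), as the 250 bases before and 50 after each gene's annotated start, and searched for the E-box CACGTG, for its longer form TCACGTGA and for the palindrome GTCACGTGAC described for lysosomal genes. Each is its own reverse complement, so both strands read alike, and the longer ones contain the shorter ones. The table held an entry for 28 of the 39 members, and the 11 without were CTSB, CTSO, LGMN, HEXA, MANBA, NAGLU, HGSNAT, SGSH, ARSA, ASAH1 and PSAP. The 250 bases before the start are shown 5′ to 3′ on the gene's strand for the 2 members that rose in both degrader and ligand cells (NEU1 and TPP1) and for 2 members with the full palindrome, the galactosamine sulfatase GALNS, which rose in degrader cells, and acid alpha-glucosidase GAA, which did not pass the test. Capitals mark each E-box with 2 bases on either side. The stretches are chr6:31862822-31863071 (minus strand) for NEU1, chr11:6619423-6619672 (minus strand) for TPP1, chr16:88856948-88857197 (minus strand) for GALNS and chr17:80101331-80101580 (plus strand) for GAA.
NEU1: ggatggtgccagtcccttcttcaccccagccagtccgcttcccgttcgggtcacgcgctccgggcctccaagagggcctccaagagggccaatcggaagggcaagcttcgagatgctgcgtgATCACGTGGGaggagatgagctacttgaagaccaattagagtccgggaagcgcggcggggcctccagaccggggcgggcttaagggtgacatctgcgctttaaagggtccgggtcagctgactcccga
TPP1: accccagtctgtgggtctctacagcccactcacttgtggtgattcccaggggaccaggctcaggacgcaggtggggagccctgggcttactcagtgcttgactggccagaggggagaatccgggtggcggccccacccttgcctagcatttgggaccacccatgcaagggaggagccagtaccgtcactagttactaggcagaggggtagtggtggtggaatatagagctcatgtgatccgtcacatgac
GALNS: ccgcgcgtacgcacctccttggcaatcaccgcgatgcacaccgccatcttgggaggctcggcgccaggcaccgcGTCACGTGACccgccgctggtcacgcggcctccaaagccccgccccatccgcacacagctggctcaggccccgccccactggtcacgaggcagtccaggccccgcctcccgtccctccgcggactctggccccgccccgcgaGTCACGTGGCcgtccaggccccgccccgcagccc
GAA: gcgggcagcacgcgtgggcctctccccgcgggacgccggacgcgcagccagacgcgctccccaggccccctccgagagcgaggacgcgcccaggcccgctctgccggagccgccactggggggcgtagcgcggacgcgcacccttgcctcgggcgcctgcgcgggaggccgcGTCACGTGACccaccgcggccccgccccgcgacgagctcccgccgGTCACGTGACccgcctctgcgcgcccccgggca

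The palindrome GTCACGTGAC was in 3 of the 28 member promoters (10.7%, GAA, GALNS and PLBD2) and in 0.725% of the 12835 promoters of tested genes of the same length. The form TCACGTGA was in 5 (17.9%), with CTSA and SCPEP1 added, against 1.75% of promoters of tested genes. The E-box CACGTG was in 9 (32.1%), with CTSD, CTSF, DPP7 and NEU1 added, against 10.0% of promoters of tested genes. In NEU1 the E-box began at position -126 from the start and read ATCACGTGGG with its flanks, and TPP1 had no exact match to the 3 motifs in this window. Only exact matches were searched, and near forms were not counted. The stretch shown for TPP1 ends in GTCACATGAC, which has CACATG where the palindrome has CACGTG. In GALNS the E-boxes began at -174 and -32, and in GAA at -76 and -31.

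Of the 9 members with an E-box, 6 rose and 3 did not pass the test in degrader against vehicle cells, with a median log2 fold change of 0.31. Of the 19 with a promoter entry and no E-box, 8 rose and 3 fell, with a median of 0.06. The 11 members without an entry are in neither group, and most of them rose. LGMN, HEXA, MANBA, HGSNAT, SGSH, ARSA, ASAH1 and PSAP rose, CTSB fell, and CTSO and NAGLU did not pass. Many rises are thus unplaced, and the gap between the 2 medians could change with them. Over all tested genes with a promoter entry, 22.5% of the 1288 with an E-box rose and 18.1% fell, and 16.7% of the 11547 without one rose and 18.3% fell. The palindrome did not go with a call in every case: GALNS rose by 0.51 on the log2 scale, while GAA had 0.05 (adjusted p = 0.504) and PLBD2 0.11 (adjusted p = 0.0879) in the edgeR test. These counts describe letters in a window and were given no test.

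Among the 13 proteases, 6 rose and 2 fell in degrader against vehicle cells, where 16.4% of all tested genes rose and 16.4% fell. The median log2 fold change of the proteases was 0.14. After TPP1, the largest rise was in the cysteine protease CTSF, with 57.1 ± 3.83 CPM in degrader cells and 43.1 ± 3.93 CPM in vehicle cells, a log2 fold change of 0.41 (adjusted p = 0.000495). CTSD had 269.8, 253 and 237 CPM in degrader libraries and 210.4, 196 and 199.7 CPM in vehicle libraries, a log2 fold change of 0.33 (SE 0.06, edgeR adjusted p = 0.000432). Enzalutamide libraries held 218, 196 and 206 CPM of CTSD and ligand libraries 223, 225 and 199 CPM. All degrader libraries of CTSD lay above all libraries of the other groups, and the other groups overlapped.

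The serine carboxypeptidase SCPEP1 rose by 0.31 on the log2 scale (adjusted p = 0.000247). CTSA, a carboxypeptidase that also holds NEU1 and beta-galactosidase in a stable complex, rose by 0.28 (adjusted p = 0.000808). The asparaginyl endopeptidase legumain (LGMN), which processes other lysosomal proteases, rose by 0.21 (adjusted p = 0.0061). All 3 of these log2 fold changes were smaller than that of TPP1.

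Cathepsin B, a cysteine protease with endopeptidase and dipeptidyl carboxypeptidase activity, went the other way. It had 57.9, 60.6 and 60.0 CPM in degrader libraries, 94.2, 90.1 and 88.0 CPM in enzalutamide libraries, 85.0, 89.4 and 77.9 CPM in ligand libraries and 94.4, 89.0 and 85.9 CPM in vehicle libraries. All degrader libraries lay below all other libraries, and the other 3 groups overlapped. Degrader against vehicle gave a log2 fold change of -0.59 (SE 0.06, 95% interval -0.71 to -0.48, edgeR adjusted p = 5.82e-07), and -0.62 to -0.56 with each library left out in turn. The aminopeptidase cathepsin H (CTSH) also fell, with 24.1 ± 1.01 CPM in degrader cells and 27.7 ± 1.26 CPM in vehicle cells, a log2 fold change of -0.20 (adjusted p = 0.0284).

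DPP7 had 259, 237 and 223 CPM in degrader libraries, 279, 250.5 and 258 CPM in enzalutamide libraries, 274, 292 and 228 CPM in ligand libraries and 278, 242 and 235 CPM in vehicle libraries. Its 4 groups overlapped, and the log2 fold change of degrader against vehicle was -0.07 with an interval of -0.25 to 0.12 (edgeR adjusted p = 0.583). Cathepsin L (CTSL) was at 0.02 with an interval of -0.12 to 0.15, and the carboxypeptidase cathepsin Z (CTSZ) at -0.04 with an interval of -0.22 to 0.13. Cathepsin O (CTSO) was at 0.14 (adjusted p = 0.225). The dipeptidyl peptidase CTSC, which activates serine proteases of immune cells, was at -0.15 (adjusted p = 0.0617). None of these 5 proteases passed the test.

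Among the 13 glycan enzymes, 7 rose and 1 fell in degrader against vehicle cells, with a median log2 fold change of 0.16. Of all tested genes, 16.4% rose and 16.4% fell. IDUA, the member with the lowest FPKM in vehicle cells, had 5.51, 5.17 and 3.90 CPM in degrader libraries, 3.06, 3.09 and 3.48 CPM in enzalutamide libraries, 3.44, 4.05 and 3.33 CPM in ligand libraries and 3.03, 2.77 and 2.87 CPM in vehicle libraries. Degrader libraries lay above vehicle libraries, but degrader replicate 3 lay below ligand replicate 2. The log2 fold change of degrader against vehicle was 0.75 (SE 0.13, 95% interval 0.48 to 1.02, edgeR adjusted p = 0.000277), a wider interval than that of NEU1.

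Aspartylglucosaminidase (AGA), which cuts the bond between asparagine and a glycan, had 9.36 ± 0.590 CPM in degrader cells and 7.16 ± 0.116 CPM in vehicle cells, a log2 fold change of 0.38 (adjusted p = 0.00109). Beta-mannosidase (MANBA) rose by 0.23 (adjusted p = 0.0081). HGSNAT, a membrane acetyltransferase of heparan sulfate breakdown and so no soluble hydrolase, rose by 0.21 (adjusted p = 0.00151). Smaller rises were called for HEXA, the alpha subunit of beta-hexosaminidase (0.16, adjusted p = 0.0386), and for GLB1, the beta-galactosidase (0.16, adjusted p = 0.0185).

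Alpha-galactosidase A (GLA), the enzyme deficient in Fabry disease, was the glycan enzyme that fell. It had 20.4, 17.8 and 19.6 CPM in degrader libraries, 23.8, 24.5 and 24.3 CPM in enzalutamide libraries, 22.7, 24.8 and 24.3 CPM in ligand libraries and 24.3, 25.4 and 25.5 CPM in vehicle libraries. All degrader libraries lay below all other libraries. Its log2 fold change in degrader against vehicle cells was -0.38 (SE 0.06, 95% interval -0.51 to -0.25, edgeR adjusted p = 0.000167).

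The other 5 glycan enzymes did not pass the test. GAA, which degrades glycogen and is deficient in Pompe disease, was at 0.05 with an interval of -0.06 to 0.17. The alpha-mannosidase MAN2B1 was at 0.12 (adjusted p = 0.212), the alpha-fucosidase FUCA1 at -0.05 (adjusted p = 0.593) and the alpha-N-acetylglucosaminidase NAGLU at -0.04 (adjusted p = 0.634). Beta-glucuronidase (GUSB) was at -0.10 (adjusted p = 0.148), and this value is uncertain. The table lists 11 GUSB pseudogenes whose summed reads came to 89.5% of those of GUSB, so reads could be split between them.

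Of the 5 sulfatases, 4 rose in degrader against vehicle cells, where 16.4% of all tested genes rose. The median log2 fold change over all 5 was 0.27. GALNS, which acts on keratan and chondroitin sulfate, had 11.2, 10.5 and 10.7 CPM in degrader libraries, 8.36, 6.18 and 7.67 CPM in enzalutamide libraries, 9.39, 9.55 and 8.50 CPM in ligand libraries and 8.07, 7.41 and 7.31 CPM in vehicle libraries. Degrader libraries were highest and ligand libraries lay above vehicle libraries, while enzalutamide libraries spread across and beyond the vehicle range. Set against vehicle, the degrader gave a log2 fold change of 0.51 (SE 0.10, 95% interval 0.30 to 0.71, edgeR adjusted p = 0.000674).

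Iduronate 2-sulfatase (IDS) rose by 0.29 (adjusted p = 0.0015). Heparan N-sulfatase (SGSH) rose by 0.27 (adjusted p = 0.0113), and arylsulfatase A (ARSA), which acts on sulfatide, by 0.27 (adjusted p = 0.00119). ARSB did not pass the test at -0.13 (adjusted p = 0.298).

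Of the 8 lipid enzymes and activators, 5 rose and 1 fell in degrader against vehicle cells. All tested genes gave 16.4% higher and 16.4% lower, and the class median log2 fold change was 0.16. PSAP had 578, 547 and 529 CPM in degrader libraries, 504, 474 and 478 CPM in enzalutamide libraries, 497, 499 and 475 CPM in ligand libraries and 481, 463 and 461 CPM in vehicle libraries. Degrader libraries lay above all others, and the other 3 groups overlapped. The log2 fold change of degrader against vehicle was 0.23 (SE 0.05, edgeR adjusted p = 0.000769).

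Lysosomal acid lipase (LIPA), which hydrolyses cholesteryl esters and triglycerides, had 50.2 ± 2.37 CPM in degrader cells and 38.5 ± 1.87 CPM in vehicle cells, a log2 fold change of 0.38 (adjusted p = 0.000167). The ganglioside activator GM2A, the partner of hexosaminidase A, rose by 0.27 (adjusted p = 0.00805). Acid sphingomyelinase (SMPD1) rose by 0.20 (adjusted p = 0.0257), and acid ceramidase (ASAH1) by 0.12 (adjusted p = 0.0475). PPT1, which removes palmitate from proteins, fell, with 128 ± 3.65 CPM in degrader cells and 143 ± 1.82 CPM in vehicle cells, a log2 fold change of -0.16 (adjusted p = 0.00987). Galactosylceramidase (GALC) was at 0.06 (adjusted p = 0.619) and did not pass the test.

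**Figure D3:**
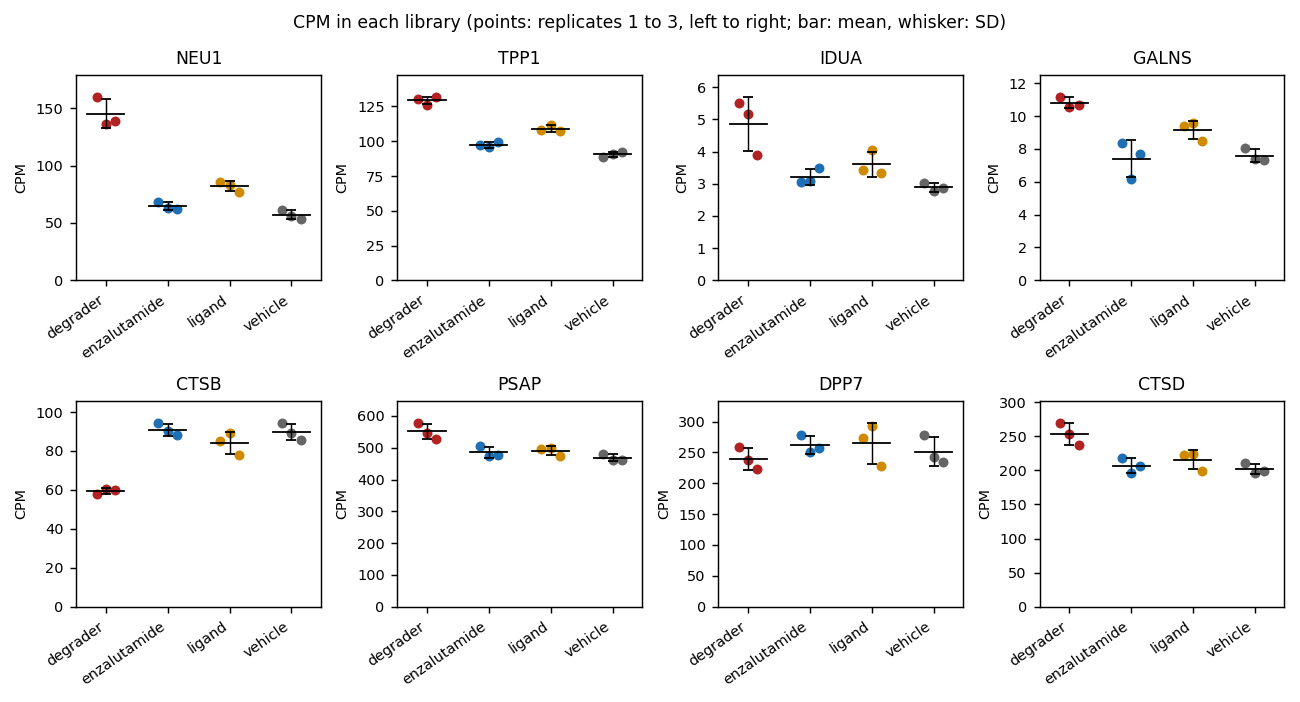
CPM of 8 members in each of the 12 libraries, with the mean and SD of each group. The degrader libraries lie above all vehicle libraries for NEU1, TPP1, IDUA, GALNS, PSAP and CTSD and below them for CTSB. For DPP7 the 2 groups overlap.

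Leaving out 1 of the 6 libraries at a time kept 20 of the 26 calls of degrader against vehicle. The calls lost were those of CTSH without degrader replicate 1 or 3 or vehicle replicate 1 or 2 (adjusted p = 0.0581 to 0.117), GLB1 without degrader replicate 1 or 3 or vehicle replicate 3 (adjusted p = 0.0536 to 0.0744), SGSH without degrader replicate 1 (adjusted p = 0.0588), SMPD1 without degrader replicate 2 or 3 or vehicle replicate 1 or 3 (adjusted p = 0.0623 to 0.108), HEXA without any 1 of the 6 libraries (adjusted p = 0.0539 to 0.138) and ASAH1 without any 1 of the 6 libraries (adjusted p = 0.0662 to 0.174).

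Summed by class, proteases reached 1058 to 1152 CPM in degrader libraries and 981 to 1059 CPM in vehicle libraries, which overlapped only in that degrader replicate 3 (1058 CPM) lay below vehicle replicate 1 (1059 CPM). The other vehicle libraries held 981 and 991 CPM. Glycan enzymes reached 725 to 781 CPM in degrader libraries and 614 to 649.8 CPM in vehicle libraries. Sulfatases reached 180.4 to 185 CPM in degrader libraries and 149 to 154 CPM in vehicle libraries. The sums of lipid enzymes and activators were 1012 to 1048 CPM in degrader libraries and 911 to 933 CPM in vehicle libraries. Sums of glycan enzymes, sulfatases and lipid enzymes did not overlap between degrader and vehicle cells. NEU1 made up much of the glycan difference. Its mean was 145 CPM in degrader cells and 56.9 CPM in vehicle cells, where the class means were 744.5 and 629.5 CPM. Without NEU1 the glycan sums overlapped, as degrader replicate 3 lay below vehicle replicate 1.

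**Figure D4:**
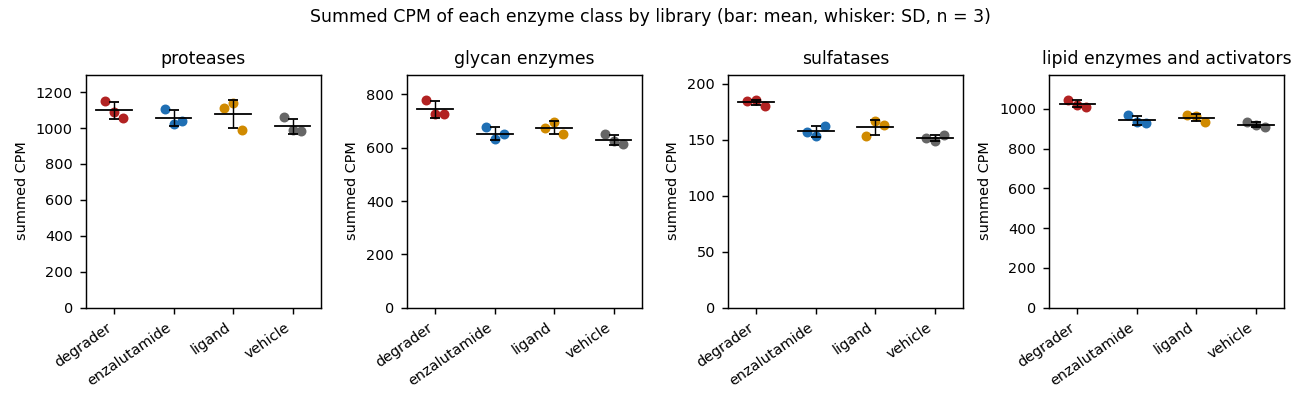
Summed CPM of the 4 enzyme classes in each library, with the mean and SD of each group (n = 3). Degrader libraries lie above vehicle libraries for glycan enzymes (NEU1 included), sulfatases and lipid enzymes, and overlap them for proteases (1058 to 1152 against 981 to 1059 CPM).

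In ligand cells, 2 of the 39 members rose against vehicle cells, NEU1 and TPP1, where 0.203% of all tested genes rose and 0.0339% fell. No member fell by edgeR, and none fell by DESeq2 or limma-voom. At an unadjusted p under 0.05 there were 8 of 39 members, all 8 higher, where 7.33% of all tested genes were under it (4.21% higher). The median log2 fold change of the 39 was 0.07. NEU1 had 81.8 ± 4.38 CPM in ligand cells and 56.9 ± 3.92 CPM in vehicle cells, a log2 fold change of 0.52 (SE 0.07, 95% interval 0.38 to 0.67, edgeR adjusted p = 0.00121). TPP1 had 109 ± 2.42 CPM in ligand cells and 90.7 ± 1.81 CPM in vehicle cells, a log2 fold change of 0.27 (SE 0.04, 95% interval 0.18 to 0.36, edgeR adjusted p = 0.00727). The TPP1 call was lost without vehicle replicate 2 (adjusted p = 0.0576) and the count without that library was 1.

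Ligand and vehicle libraries did not overlap for 7 members (17.9%), all higher with the ligand, against 11.3% of all genes tested. Besides NEU1 and TPP1 these were CTSA at 0.22 (adjusted p = 0.16), GALNS at 0.27 (adjusted p = 0.531), IDUA at 0.32 (adjusted p = 0.613), HGSNAT at 0.10 (adjusted p = 0.654) and PLBD2 at 0.10 (adjusted p = 0.66), none of which passed the edgeR test on all libraries. Of these, CTSA passed in edgeR without ligand replicate 3, at a log2 fold change of 0.27 (adjusted p = 0.0283), and in DESeq2 on all libraries (adjusted p = 0.0260). CTSB, which fell in degrader cells, was at -0.09 with an interval of -0.21 to 0.02 in ligand cells. GLA was at -0.07 with an interval of -0.19 to 0.06.

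In enzalutamide cells, 0 of the 39 members passed the edgeR test against vehicle cells, where 1.44% of all tested genes passed (0.35% rose and 1.09% fell). At an unadjusted p under 0.05 there were 4 members, all 4 higher, where 9.88% of all tested genes were under it (4.47% higher). DESeq2 and limma-voom called 0. The median log2 fold change of the 39 was 0.04. NEU1 had 64.6 ± 3.37 CPM in enzalutamide cells and 56.9 ± 3.92 CPM in vehicle cells, a log2 fold change of 0.18 with an interval of 0.04 to 0.33 (edgeR adjusted p = 0.329).

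The highest of the 39 values was that of CTSH, 32.3 ± 2.45 CPM in enzalutamide cells and 27.7 ± 1.26 CPM in vehicle cells, a log2 fold change of 0.22 (adjusted p = 0.141). CTSA followed at 0.17 (adjusted p = 0.191), and TPP1 was at 0.10 (adjusted p = 0.402). CTSB was at 0.02 with an interval of -0.10 to 0.13. The libraries of enzalutamide and vehicle cells did not overlap for 8 members (20.5%), 7 higher and 1 lower, against 17.1% of all genes tested.

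The degrader was also compared directly with the other compounds. These comparisons share the degrader libraries with each other and with the comparison against vehicle, so their values are given side by side. Against enzalutamide, 19 of 39 members rose and 6 fell, where 16.3% of all tested genes rose and 16.1% fell, and the median log2 fold change was 0.15. Against the ligand, 16 rose and 6 fell, where 14.3% of all tested genes rose and 14.2% fell, and the median was 0.12.

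NEU1 was higher in degrader cells by 1.17 on the log2 scale against enzalutamide (SE 0.07, edgeR adjusted p = 2.56e-09) and by 0.83 against the ligand (SE 0.07, adjusted p = 1.94e-07). TPP1 was higher by 0.41 against enzalutamide (adjusted p = 1.64e-06) and by 0.25 against the ligand (adjusted p = 0.000354). LIPA was higher by 0.41 against enzalutamide (adjusted p = 0.0001) and by 0.37 against the ligand (adjusted p = 0.00032). Each of these 3 transcripts was above both other compounds after the same 24 h, at doses that the labels do not give.

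CTSB fell in degrader cells, at a log2 fold change of -0.61 (adjusted p = 4.65e-07) against enzalutamide and -0.50 (adjusted p = 5.96e-06) against the ligand. CTSH fell likewise, at -0.42 (adjusted p = 0.000118) against enzalutamide and -0.31 (adjusted p = 0.00217) against the ligand. GLA was at -0.33 (adjusted p = 0.000606) against enzalutamide and -0.31 (adjusted p = 0.00116) against the ligand. All 3 also fell against vehicle, as did the thioesterase PPT1. PPT1 was at -0.22 (adjusted p = 0.000759) against enzalutamide and -0.18 (adjusted p = 0.00524) against the ligand. Members that had not passed against vehicle and fell here were CTSC, at -0.19 (adjusted p = 0.019) against enzalutamide and -0.22 (adjusted p = 0.00984) against the ligand, GUSB, at -0.15 (adjusted p = 0.0438) against enzalutamide, and NAGLU, at -0.17 (adjusted p = 0.0477) against the ligand. CTSO, also not passed against vehicle, rose against enzalutamide by 0.23 (adjusted p = 0.0442).

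Some members that rose against vehicle did not pass against another compound. GALNS was higher by 0.55 against enzalutamide (adjusted p = 0.000386), while against the ligand it was at 0.24 with an interval of 0.04 to 0.44 (adjusted p = 0.0728). CTSA passed in neither comparison, at 0.11 (adjusted p = 0.142) against enzalutamide and 0.06 (adjusted p = 0.435) against the ligand. HGSNAT was at 0.11 (adjusted p = 0.0707) against the ligand, and passed against enzalutamide at 0.25 (adjusted p = 0.000359). A value that missed the threshold does not show that 2 compounds act alike. ASAH1, GLB1 and GM2A did not pass against the ligand either, at 0.11 (adjusted p = 0.0875), 0.13 (adjusted p = 0.0516) and 0.12 (adjusted p = 0.209). HEXA, SGSH and SMPD1 did not pass against enzalutamide, at 0.15 (adjusted p = 0.0548), 0.18 (adjusted p = 0.0838) and 0.13 (adjusted p = 0.139).

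Leaving out single libraries kept 19 of the 25 calls against enzalutamide and 12 of the 22 calls against the ligand in every edgeR fit. Against enzalutamide the calls lost were those of CTSC without degrader replicate 2 or enzalutamide replicate 1 or 2 (adjusted p = 0.0588 to 0.0966), GUSB without degrader replicate 2 or 3 or enzalutamide replicate 1 or 3 (adjusted p = 0.109 to 0.158) and LGMN without degrader replicate 1 or 2 or enzalutamide replicate 2 or 3 (adjusted p = 0.0533 to 0.0745). The others lost there were GLB1 without degrader replicate 1 or 3 or enzalutamide replicate 1, 2 or 3 (adjusted p = 0.0531 to 0.158), CTSO without any 1 of the 6 libraries (adjusted p = 0.0663 to 0.145) and GM2A without any 1 of the 6 libraries (adjusted p = 0.057 to 0.13). Against the ligand, calls of higher members were lost for IDUA without degrader replicate 1 or 2 or ligand replicate 1 or 3 (adjusted p = 0.0507 to 0.0862), PSAP without degrader replicate 1 (adjusted p = 0.0564), CTSF without degrader replicate 1 or 2 or ligand replicate 3 (adjusted p = 0.0866 to 0.112) and HEXA without degrader replicate 3 or ligand replicate 2 or 3 (adjusted p = 0.052 to 0.0882). Further losses were SMPD1 without degrader replicate 2 or 3 or ligand replicate 3 (adjusted p = 0.0556 to 0.0677), SGSH without degrader replicate 1 or 2 or ligand replicate 1 or 3 (adjusted p = 0.0726 to 0.219), IDS without degrader replicate 2 or 3 or ligand replicate 1 or 2 (adjusted p = 0.0769 to 0.121) and LGMN without degrader replicate 1, 2 or 3 or ligand replicate 1 or 3 (adjusted p = 0.0524 to 0.158). Among lower members, the losses were CTSC without degrader replicate 2 or ligand replicate 1 (adjusted p = 0.0533) and NAGLU without degrader replicate 2 or 3 or ligand replicate 1 or 2 (adjusted p = 0.0954 to 0.195). The count of members higher than with the ligand was 10 without degrader replicate 2 or without ligand replicate 3, against 16 with all libraries. Other members passed only with a library left out: SGSH against enzalutamide without degrader replicate 3 (adjusted p = 0.0464), HEXA against enzalutamide without enzalutamide replicate 1 (0.021), GLB1 against the ligand without ligand replicate 1 (0.0499), and, against the ligand without ligand replicate 3, DPP7 at a log2 fold change of -0.24 (adjusted p = 0.0154) and GUSB at -0.16 (adjusted p = 0.0383).

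**Figure D5:**
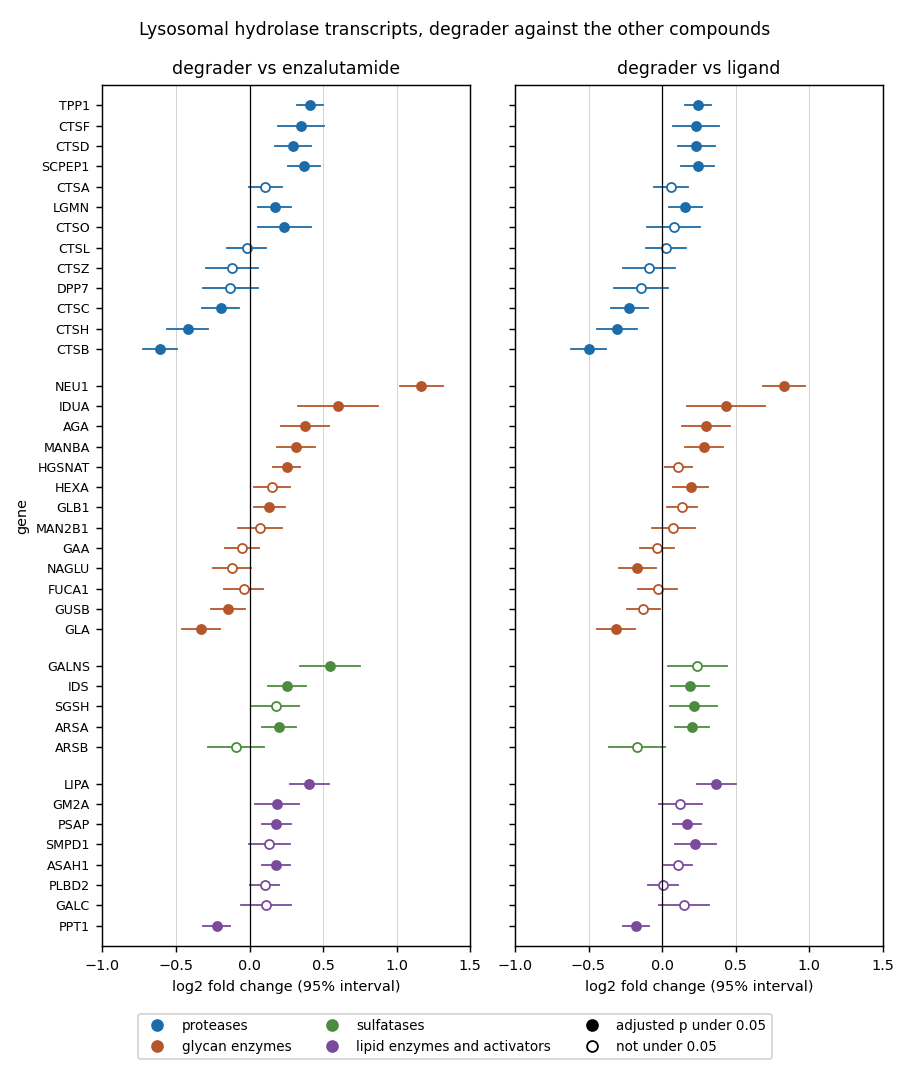
Log2 fold change with 95% confidence interval of each member for the degrader against each of the other compounds (enzalutamide left, ligand right), with filled points where the edgeR adjusted p was under 0.05. NEU1 is the highest point in both panels (1.17 and 0.83) and CTSB the lowest (-0.61 and -0.50).

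Other genes for lysosomal proteins outside the 39, most of them enzymes, moved in both directions in degrader against vehicle cells. Of 29 listed for comparison, 27 were tested, 8 rose (29.6%) and 6 fell (22.2%), where 16.4% of all tested genes rose and 16.4% fell. The median log2 fold change of the 27 was 0.04. The largest rises were in the cholesterol transfer protein NPC2 (0.53, adjusted p = 2.3e-06), the acid nuclease DNASE2 (0.49, adjusted p = 1.67e-05) and the hyaluronidase family member HYAL3 (0.38, adjusted p = 0.00638). The largest falls were in cathepsin V (CTSV, -0.48, adjusted p = 0.0247), the gamma-glutamyl hydrolase GGH (-0.37, adjusted p = 0.000199) and the sialate esterase SIAE (-0.31, adjusted p = 0.000228). The CTSV call was lost without degrader replicate 2 or 3 or vehicle replicate 1 or 3 (adjusted p = 0.0762 to 0.116).

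Of 12 genes for sorting and maturation of the enzymes, 5 rose and 1 fell in degrader against vehicle cells. All tested genes gave 16.4% higher and 16.4% lower. IGF2R, the large mannose 6-phosphate receptor that carries the enzymes to the lysosome, had 282 ± 6.66 CPM in degrader cells and 194 ± 3.08 CPM in vehicle cells, a log2 fold change of 0.54 (adjusted p = 6.57e-08). SUMF1, which activates all sulfatases by making their formylglycine, rose by 0.21 (adjusted p = 0.0109), and CLN6, an endoplasmic reticulum protein of enzyme export, fell by 0.27 on the log2 scale (adjusted p = 0.00138). The other 3 that rose were SCARB2, the receptor of beta-glucocerebrosidase (0.19, adjusted p = 0.0149), CLN8 (0.17, adjusted p = 0.0151) and the small mannose 6-phosphate receptor M6PR (0.13, adjusted p = 0.033). The SCARB2 call was lost without degrader replicate 3 or vehicle replicate 1 (adjusted p = 0.0665 to 0.0877). The CLN8 call was lost without degrader replicate 2 or vehicle replicate 1 or 2 (adjusted p = 0.0536 to 0.0724), and the M6PR call without degrader replicate 1, 2 or 3 or vehicle replicate 2 or 3 (adjusted p = 0.0631 to 0.11).

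Of 5 protease inhibitors tested, 2 rose and 1 fell in degrader against vehicle cells, against 16.4% higher and 16.4% lower of all tested genes. The cysteine cathepsin inhibitor cystatin B (CSTB) had 87.7 ± 5.52 CPM in degrader cells and 57.1 ± 1.91 CPM in vehicle cells, a log2 fold change of 0.62 (adjusted p = 7.88e-06). Cystatin A (CSTA) was barely present, at 0.486 ± 0.0820 CPM in degrader cells and 0.123 ± 0.0320 CPM in vehicle cells, and its log2 fold change of 1.98 (adjusted p = 0.000303) rests on few reads. SERPINB1 fell by 0.30 on the log2 scale (adjusted p = 0.00105).

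Among 4 regulators of lysosomal genes, FLCN, which restrains TFEB and TFE3 through mTORC1 signalling, had 47.2 ± 0.766 CPM in degrader cells, 33.1 ± 1.72 CPM in ligand cells and 26.1 ± 1.13 CPM in vehicle cells. Its log2 fold change was 0.85 (adjusted p = 6.79e-09) for the degrader and 0.34 (adjusted p = 0.00986) for the ligand against vehicle, and the second call was lost without ligand replicate 2 (adjusted p = 0.0616) or vehicle replicate 3 (adjusted p = 0.092). MITF rose by 0.51 in degrader cells (adjusted p = 7.26e-05). The transcript of TFEB fell by 0.23 on the log2 scale (adjusted p = 0.0339), a call that was lost without degrader replicate 2 or 3 or vehicle replicate 1 or 3 (adjusted p = 0.0725 to 0.121). TFE3 was at 0.08 (adjusted p = 0.412) and did not pass the test. Transcript levels do not report where these proteins are in the cell.

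The authors' deposited table gave fold changes and adjusted p-values for each compound against vehicle. At an adjusted p under 0.05, 22 members were higher and 5 lower with the degrader in the authors' deposited table, which included all 26 called here and CTSC. With enzalutamide no member passed in the authors' deposited table, and 3 were higher with the ligand, NEU1, TPP1 and CTSA.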

How the data were processed

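RNA was harvested with Trizol and sequenced after poly(A) selection with a kit that marks strand. Per the submitters' processing notes, HISAT2, StringTie and GRCh37 were used; versions are not given in the sources used here. The authors deposited a single table with a raw read count and an FPKM value (scaled to transcript length and library size) for each gene and library, per the file headers. The deposited score columns hold the authors' signed linear fold change of each compound against vehicle, and the deposited p-value columns the authors' Benjamini-Hochberg adjusted p. Whether counting used strand, and the test behind those p-values, are not given in the sources used here. Without strand, HEXA and its antisense gene HEXA-AS1 (0.52% of HEXA reads) cannot be told apart.

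From the counts, 17702 of 18668 genes passed filterByExpr of edgeR 4.0.16 (at least 10 reads in enough libraries and 15 in total), were scaled by TMM (factors 0.987 to 1.016) and fitted by glmQLFit with robust dispersion on all 12 libraries (8 residual degrees of freedom). The 5 comparisons were tested by glmQLFTest, called at a Benjamini-Hochberg adjusted p under 0.05 over all tested genes. The fit was also run on simulated counts without a replicate effect. Its outcome is not given here, and no result above rests on it. CPM uses TMM-scaled library sizes. FPKM served to compare levels between genes. Between replicates, chi-square per degree of freedom, pooled over genes, was 5.56 to 22.8, so spread between libraries exceeded counting error over these genes together. This pooled figure does not describe each gene. For members with few reads, such as IDUA (172 to 224 in vehicle libraries), counting error also enters, and p-values reflect both. Alternatives were size factors of the RLE type, no filter, limma-voom, DESeq2, a replicate block and leaving out each library in turn. The fits ran in R 4.3.3 with DESeq2 1.42.0 and limma 3.58.1.

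Every member is named. Values of single libraries are given for members called in degrader against vehicle with an absolute log2 fold change of at least 0.5, for members called in another comparison against vehicle, and for the 3 members of highest mean FPKM. GLA was added after its values were seen. Of the other lists, up to 3 called genes per direction with the largest change are named, and further ones after their values were seen. The members, the lists and the rule were chosen with earlier results of these data known. The RefSeq tables are on GRCh38.p14, so no coordinates were exchanged with the GRCh37 files.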

Additional observations from a re-analysis of the deposited data

How the results depend on the processing

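No member changed sign of a called value under any alternative. With DESeq2, limma-voom, RLE size factors and no low count filter, the counts of members called higher or lower stayed within 1.5 times those reported in all 5 comparisons. DESeq2 added CTSC in degrader against vehicle (adjusted p = 0.0371), CTSA in ligand against vehicle (0.026) and GLB1 in degrader against ligand (0.0448). RLE size factors and no filter each ended the calls of ASAH1 in degrader against vehicle (adjusted p = 0.0609 and 0.055), GLB1 (0.0573 and 0.054) and GM2A (0.0582 and 0.0586) in degrader against enzalutamide, and SGSH in degrader against ligand (0.0524 and 0.0591). Leaving out each library in turn gave 18 to 20 members higher and 3 to 4 lower in degrader against vehicle, 15 to 17 higher and 4 to 6 lower against enzalutamide, and 10 to 14 higher and 4 to 8 lower against the ligand; in ligand against vehicle 1 to 3 were higher, and in enzalutamide against vehicle 0. Fewer libraries enter such fits. A replicate block on the label numbers gave 23 members higher and 5 lower in degrader against vehicle, 3 higher in enzalutamide against vehicle (adjusted p = 0.0246 for CTSA, 0.0223 for CTSH and 0.0149 for NEU1) where the fit without it gave 0, and 3 higher in ligand against vehicle (with CTSA, adjusted p = 0.00943); the cause was not tested. Whether the numbers pair the samples is not settled here, and the main fit does not use them. Correlations of deviations between libraries of the same number were -0.0323 to 0.207, and of different numbers -0.169 to 0.0744. Of 12 libraries, 11 correlated best with their own number. Over all genes, calls were 255 in enzalutamide against vehicle, 553 with the block and 403 with DESeq2, and in ligand against vehicle 42, 191 and 121, with 21 to 77 when single libraries were left out. In degrader against vehicle they were 5795, and 7265 with the block. The least reads of a member in a library were 172, for IDUA. Its SE in degrader against vehicle was 0.13, against 0.07 for NEU1. How far depth limited the calls of such members was not tested.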
